A study of Mus musculus with 2 samples.

Results

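The barcodes described here had few UMIs (unique molecular identifiers, each counted as 1 captured RNA molecule) and almost no reads from a short set of glial, vascular and inhibitory marker genes. They were chosen by 8 criteria applied to each barcode of the 2 libraries: a total of 1000 to 8000 UMIs, a share of mitochondrially encoded UMIs under 5%, and 6 upper limits on marker sums. The limits were 1 UMI for Inpp5d and Dock2 (microglia), 2 for Mag, Mog, St18 and Prr5l (oligodendrocytes), 2 for Slc1a3, Gja1 and Aqp4 (astrocytes), 1 for Pdgfra and Vcan (oligodendrocyte precursor cells, OPC), 4 for Gad1 and Gad2 (GABAergic neurons) and 1 for Slc6a13, Ranbp3l and Cldn5 (vascular and meningeal cells). Of the 12918 barcodes in the data, 3888 met all criteria, and these are called low-UMI barcodes below.

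The study asked how OLE (N-oleoyl-leucine, labelled C18:1-Leu) acts on the cells of the entorhinal cortex in the APP/PS1 model of amyloid pathology, a mouse line carrying mutant transgenes of familial Alzheimer disease. Both libraries came from male APP/PS1 mice and were single-nucleus RNA libraries made with 10X 3′ v3 chemistry. The OLE mice drank alkaline water with the compound at 25 mg/kg/day, for 3 months that began at the age of 15 months, so they were 18 months old at the end. The vehicle mice received DMSO in such water over the same period. Each library pooled the entorhinal cortex of 5 mice, so there was 1 library per group and no replicate. The mice cannot be told apart within a pool, all tissue was taken after behavioural tests, and no library of mice without the transgenes was compared.

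Because the groups had no replicates, no test was made between them, and every interval given here is an exact 95% interval that covers counting error only. A difference between the libraries therefore compares these 2 pools, and treatment, pool and library preparation cannot be told apart.

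Droplet libraries of nuclei contain, beside intact nuclei, barcodes with little RNA. These can hold a damaged nucleus, cytoplasmic debris that carried RNA through the nuclear preparation, or RNA that was free in the suspension. Nuclear RNA is rich in unspliced transcripts of long genes and in non-coding RNAs such as Malat1 and Meg3, whereas messages for ribosomal proteins, the respiratory chain, glycolysis and the cytoskeleton are short, stable and abundant in cytoplasm. The lists below were set out along these lines, and which of these sources the low-UMI barcodes came from was not tested.

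In the vehicle library 2405 of 6745 barcodes were low-UMI barcodes, a share of 35.7% (34.5 to 36.8%, Clopper-Pearson). In the OLE library there were 1483 of 6173, or 24.0% (23.0 to 25.1%). They held nearly equal shares of all UMIs, 9.22% in the vehicle library and 9.28% in the OLE library, with fewer but deeper barcodes in OLE. Their median was 2364 UMIs in the vehicle library (quartiles 1878 and 3002) and 4383 in the OLE library (3293.5 and 5458), with a median of 1528 and 2439 genes found per barcode. The total count, 6529407 UMIs in vehicle and 6445259 in OLE, was nearly equal in both.

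**Figure D1:**
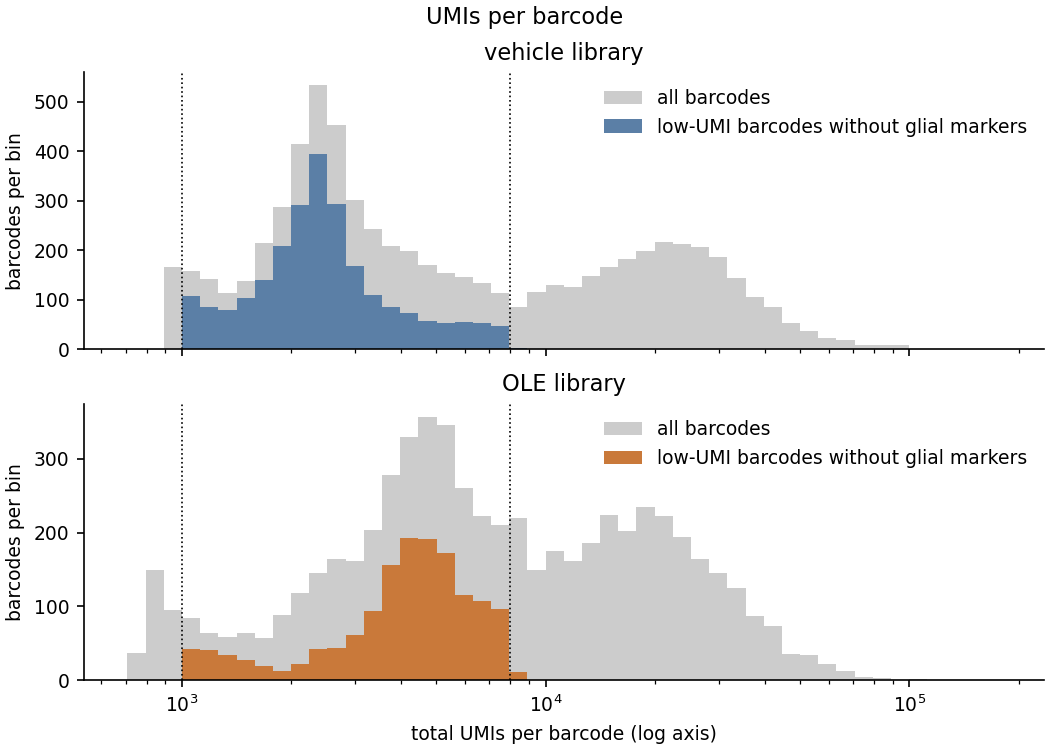
Number of barcodes (y axis) by total UMIs per barcode (x axis, log scale) in each library. Grey bars show all barcodes, coloured bars the low-UMI barcodes, and dotted lines the limits of 1000 and 8000 UMIs. In each library the low-UMI barcodes form a large part of the left-hand peak, which lies at fewer UMIs in the vehicle library (median 2364) than in the OLE library (median 4383).

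The marker limits are fixed numbers of UMIs, and a deeper barcode passes them less easily. Every barcode was also thinned at random to 1000 UMIs before the marker limits were applied. Then 43.2% of the vehicle and 35.2% of the OLE barcodes qualified, so the gap between the libraries became smaller. The limits on total and mitochondrial UMIs stayed on the full counts. Between 1000 and 8000 UMIs and under 5% mitochondrial UMIs lay 3879 vehicle and 3023 OLE barcodes, and 2913 and 2173 of them passed the thinned marker limits. The remaining gap therefore includes the libraries' difference in barcodes within those bounds. Of the 3879 and 3023 barcodes, 873 and 871 exceeded the oligodendrocyte limit at full depth, 345 and 279 the microglia limit, 267 and 396 the astrocyte limit, and 11 and 16 the GABAergic limit. Across the libraries 14 barcode sequences occurred in both, of which 1 was a low-UMI barcode in both.

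The boundary of the set was not sharp. The 259 vehicle and 365 OLE barcodes that exceeded exactly 1 limit by 1 UMI had 1457 and 1385 CPM of the oligodendrocyte list (10 genes of oligodendrocytes and myelin that the rule does not use). CPM here stands for UMIs per 1000000 UMIs of the same barcodes. The low-UMI barcodes themselves had 1341 and 1262 CPM of this list. At the upper limit on depth, 58 vehicle barcodes with 7000 to 8000 UMIs had 635 CPM of that list and 47 with 8001 to 9000 UMIs had 358. The corresponding OLE values were 869 in 120 barcodes and 723 in 96. At the lower limit, the cytoskeleton list stood at 4230 CPM in the 156 vehicle barcodes of 1000 to 1200 UMIs and at 3123 in the 136 barcodes of 800 UMIs or more that fell just below the limit. In OLE these values were 6858 in 66 barcodes and 5079 in 162.

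Deep, oligodendrocyte-marker and microglia-marker barcodes served for comparison. Deep barcodes had over 8000 UMIs, met the mitochondrial limit and kept each marker sum within its limit scaled to their depth. This allowed the rule's number of marker UMIs per 8000 total UMIs. A low-UMI barcode, with fewer UMIs, could therefore hold a larger share of them. There were 2012 deep barcodes in the vehicle library (median 21739 UMIs) and 2056 in the OLE library (median 19177). Oligodendrocyte-marker barcodes, 499 and 425, had the depth of the low-UMI barcodes and at least 10 UMIs of the 4 oligodendrocyte rule genes (medians 3503 and 3077 total UMIs). Microglia-marker barcodes, 186 and 153, were of the same depth and had at least 5 UMIs of Inpp5d and Dock2 (medians 2684.5 and 2536 total UMIs). The oligodendrocyte-marker and microglia-marker barcodes met the mitochondrial limit and every marker limit but their own. Markers of other cell types were thus capped in them too. Since the rule itself separates these groups by measured values, differences between them are given as descriptions, without a test.

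The 5 genes given as markers of the low-UMI barcodes were all higher there than in deep barcodes. Tmsb4x, which encodes the actin-sequestering peptide thymosin beta 4, stood at 399 CPM in vehicle and 597 in OLE low-UMI barcodes, against 48.0 and 74.1 in deep barcodes. Aldoa, the glycolytic aldolase A, stood at 195 and 278 against 35.9 and 60.6. Tubb2a, a beta-tubulin, had 138 and 162 against 21.8 and 37.9, Atp5g3, a subunit c gene of ATP synthase, had 73.7 and 105 against 12.1 and 17.0, and Ids, the lysosomal iduronate 2-sulfatase, had 111 and 127 against 19.0 and 28.0. Tmsb4x was not particular to this set, since the microglia-marker barcodes of the same depth had 348 and 455 CPM. The other 4 were at 21.0 to 112 CPM in microglia-marker barcodes, below their low-UMI level in the same library.

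The low-UMI barcodes carried neuronal RNA. The glutamatergic list (10 genes of cortical excitatory neurons) summed to 2536 CPM in vehicle and 2501 in OLE low-UMI barcodes. Deep barcodes had 2926 and 3055, whereas oligodendrocyte-marker barcodes had 733 and 635 and microglia-marker barcodes 963 and 862. The sum and the median gene differ in sign here. Lower than in deep barcodes were 4 genes with many UMIs, among them Arpp21 (917 and 896 against 1277 and 1253 CPM) and Camk2a, the synaptic kinase subunit (433 and 427 against 613 and 681). The other 6 of the 10 genes were higher, among them Slc17a7, the vesicular glutamate transporter VGLUT1 (279 and 270 against 149 and 202), Tbr1 (43.2 and 44.1 against 14.8 and 17.6) and Nrgn (176 and 208 against 110 and 124).

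The levels were also compared at equal depth, with each barcode thinned to 1000 UMIs. Slc17a7 was then found in 25.0% of vehicle (23.3 to 26.8%) and 23.7% of OLE low-UMI barcodes (21.6 to 26.0%). It was found in 16.0% and 18.4% of deep barcodes. Among barcodes of cell types that should lack it, 9.42% and 6.82% of oligodendrocyte-marker and 9.14% and 7.84% of microglia-marker barcodes had a UMI at the same thinned depth. Without thinning, 48.6% of the vehicle and 63.0% of the OLE low-UMI barcodes had a Slc17a7 UMI. Snap25, a core protein of synaptic vesicle fusion, was found in 78.2% and 79.7% of low-UMI barcodes, 66.3% of deep barcodes in either library, and 33.9% and 38.1% of oligodendrocyte-marker barcodes.

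Although the rule admits few glial markers, oligodendrocyte and astrocyte RNA from genes that the rule did not use was found in most low-UMI barcodes. They lacked the markers in the rule, and not glial RNA as such. The oligodendrocyte list summed to 1341 CPM in vehicle and 1262 in OLE, against 140 and 154 in deep barcodes, and 10 of its 10 genes were at least 1.5-fold higher in both libraries (31.8% of all genes compared were). At 1000 UMIs, 74.6% and 70.3% of low-UMI barcodes had a UMI of this list and 14.3% and 15.0% of deep barcodes. The level was still far below the 11601 and 14183 CPM of oligodendrocyte-marker barcodes. Mbp, which encodes a major myelin protein, was at 199 and 211 CPM in low-UMI barcodes, 58.4 and 62.7 in deep barcodes and 132 and 144 in microglia-marker barcodes. Mobp, another myelin gene, was at 43.2 and 51.5 in low-UMI barcodes, 3.63 and 5.10 in deep barcodes and 9.55 and 16.8 in microglia-marker barcodes.

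The astrocyte list summed to 1337 and 1405 CPM against 568 and 582 in deep barcodes, with 10 of 10 genes at least 1.5-fold higher (31.8% of all genes compared were). At 1000 UMIs, 73.6% and 73.8% of low-UMI and 35.4% and 37.9% of deep barcodes had a UMI of it. Slc1a2, the main glutamate transporter of astrocytes, had 573 and 633 against 343 and 358. The microglia list summed to 531 and 507 against 59.2 and 70.6, with 11 of 11 genes higher, and was found in 39.4% and 35.1% of low-UMI barcodes at 1000 UMIs. Its members C1qa, C1qb and C1qc, which encode the complement component C1q, were at 38.7 to 64.2 CPM in low-UMI barcodes, 2.37 to 4.33 in deep barcodes and 575 to 1099 in microglia-marker barcodes. The vascular list summed to 149 and 204 against 22.0 and 29.3. No gene of these 4 lists was at 0 in the low-UMI barcodes of either library. The rule let low-UMI barcodes hold a larger share of its glial and vascular markers than deep barcodes. How far this raised the lists over deep barcodes was not tested. With marker limits of 0 UMIs for low-UMI barcodes, the oligodendrocyte list had a median log2 ratio of 3.11 over both libraries, against 3.81 by the rule.

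The GABAergic list (11 genes of inhibitory neurons, Gad1 and Gad2 left out) summed to 2337 and 2445 CPM in low-UMI barcodes and 1766 and 1647 in deep barcodes. It was found in 86.8% and 84.2% of low-UMI barcodes at 1000 UMIs, but in 24.0% and 28.3% of deep barcodes, where fewer barcodes held more of it. This was not particular to low-UMI barcodes. Oligodendrocyte-marker barcodes had 2784 and 2351 CPM, and 85.0% and 77.2% of them had a UMI of the list at 1000 UMIs. Microglia-marker barcodes had 839 and 809 CPM. The neuropeptide genes were among the members that differed most between low-UMI and deep barcodes. Sst was at 110 and 155 CPM against 20.5 and 43.5 in deep barcodes, Vip at 64.3 and 103 against 10.4 and 39.6, and Npy at 23.0 and 36.5 against 3.23 and 6.04.

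**Figure D2:**
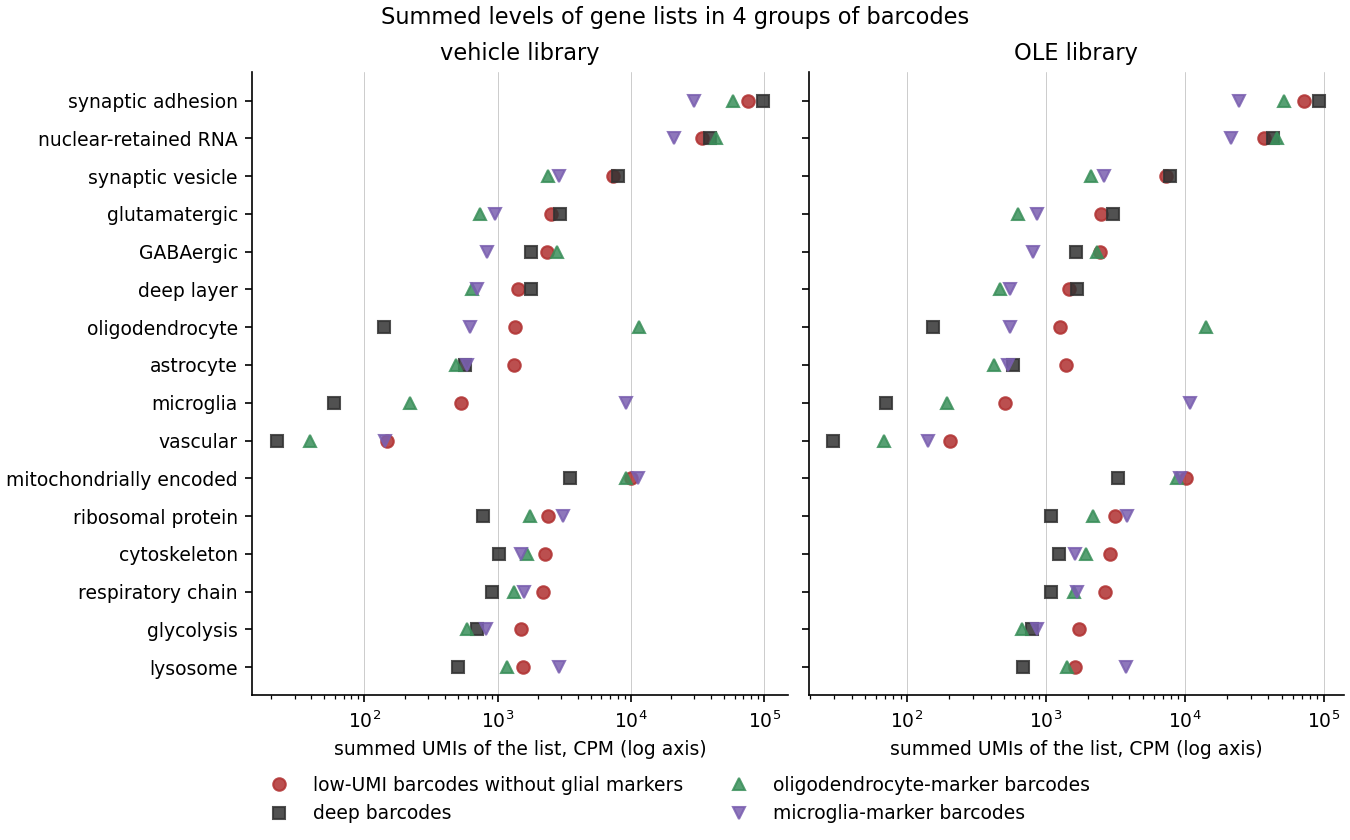
Summed level of 16 gene lists in CPM (x axis, log scale) in the vehicle (left) and OLE (right) library for low-UMI barcodes (circles), deep barcodes (squares), oligodendrocyte-marker barcodes (upward triangles) and microglia-marker barcodes (downward triangles). The low-UMI barcodes lie near the deep barcodes for the neuronal lists, such as 2536 against 2926 for the glutamatergic list in vehicle, and to their right for glial and cytoplasmic lists, such as 1341 against 140 for the oligodendrocyte list.

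The spread of this RNA over barcodes differed between low-UMI and deep barcodes. The variance of a list's UMIs over barcodes, divided by its mean, is 1 when all barcodes draw from 1 common level. After thinning to 1000 UMIs the glutamatergic list had a value of 1.01 in vehicle and 1.20 in OLE low-UMI barcodes, and 1.34 and 1.33 in deep barcodes. For the deep layer list (8 genes, most of them of layer 5 and 6 neurons) the values were 1.28 and 1.39 against 4.38 and 3.76, and for the GABAergic list 1.82 and 2.95 against 22.3 and 20.2. In these 3 neuronal lists the low-UMI barcodes differed less from one another than the deep barcodes did. The superficial layer list had 1.19 in vehicle, below the 1.55 of deep barcodes, but 2.15 in OLE, above 1.59. The oligodendrocyte list had 1.09 and 1.35 against 1.02 and 1.28. Other lists varied more among low-UMI barcodes, with 4.83 and 12.7 against 1.04 and 1.09 for the microglia list, 1.75 and 2.64 against 1.07 and 1.14 for the cytoskeleton list, 1.61 and 1.87 against 1.04 and 1.09 for the respiratory chain list, and 12.5 and 24.2 against 1.26 and 1.23 for the ribosomal protein list.

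Foxp2, Hs3st4, Zfpm2 and Tle4 are genes of deep-layer neurons, and in deep barcodes their 6 pairs were found together in 1.86 (vehicle) and 1.76 (OLE) times as many barcodes as their separate frequencies gave. In low-UMI barcodes the ratio was 1.06 and 1.02, with single pairs between 0.983 and 1.21 in vehicle and between 0.699 and 1.17 in OLE. Pairs of these genes with the superficial or mid-layer genes Cux2, Rorb and Otof had a ratio of 0.688 and 0.686 in deep barcodes and 0.949 and 1.06 in low-UMI barcodes. Single pairs of this kind ranged widely, from 0.218 to 1.56 and from 0.224 to 1.49 in deep barcodes and from 0.457 to 1.29 and from 0.261 to 1.80 in low-UMI barcodes. Hs3st4 with Rorb was above 1 in deep barcodes of both libraries, at 1.56 (1.27 to 1.90) and 1.49 (1.20 to 1.82).

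At 1000 UMIs a low-UMI barcode held more different genes than a deep one. The median was 757 genes in vehicle and 764 in OLE low-UMI barcodes, 665 and 678 in deep barcodes, 700 and 708 in oligodendrocyte-marker barcodes, and 791 and 789 in microglia-marker barcodes. Across genes, which are not independent replicates, the log2 level in low-UMI barcodes correlated with that in deep barcodes at r = 0.924 (vehicle, 7340 genes) and 0.930 (OLE, 6645 genes), and with the sum of all other barcodes of the library at 0.953 and 0.960. The correlation with microglia-marker barcodes was 0.640 and 0.597. These profiles share a library and its chemistry.

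Not all low-UMI barcodes were alike. In vehicle 63 barcodes (2.62%) and in OLE 53 (3.57%) were rich in a list of another cell type, holding at least 10 UMIs and at least 5 times the pooled share of the GABAergic, OPC, astrocyte, microglia, vascular, choroid plexus or erythrocyte list, a criterion set after the data had been seen. The microglia list marked 24 and 22 of them, the vascular list 13 and 17, and the GABAergic list 13 and 10. A single vehicle barcode held 1537 of the 1659 choroid plexus-list UMIs, and another held 2384 of the 2748 haemoglobin UMIs, which made up 72.7% of its own 3277 UMIs. In OLE 1 barcode held 550 of the 1084 haemoglobin UMIs. The glutamatergic list marked no barcode in either library by that criterion.

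Over all genes, the low-UMI barcodes differed from deep barcodes mostly by higher levels. Of 14872 genes with at least 50 UMIs in both groups together in each library, 4732 were at least 1.5-fold higher in the low-UMI barcodes of both libraries (31.8%) and 516 at least 1.5-fold lower (3.47%). The median gene itself was higher by 0.35 in vehicle and 0.30 in OLE on the log2 scale. With the ratios centred on that median gene, 3134 genes were higher and 1743 lower.

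Genes of cytoplasmic housekeeping functions were among the higher ones, and each of the following medians was above that of all genes. Of the ribosomal protein list, 70 of 79 genes were at least 1.5-fold higher (31.8% of all genes compared were), with median log2 ratios of 1.60 in vehicle and 1.43 in OLE. Rplp1 was at 70.8 and 110 CPM against 13.7 and 22.3. Of the nuclear-encoded respiratory chain list, 38 of 44 were higher (median 1.51 over both libraries), among them Ndufa4 at 63.3 and 105 against 16.1 and 28.0. Of the mitochondrially encoded list, 12 of 13 were higher (medians 1.37 and 1.48), and its sum stood at 10094 and 10230 CPM against 3476 and 3306. The rule capped this share at 5% in both groups, but the medians of 0.977% and 1.01% in low-UMI barcodes lay far below that cap.

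Of the 22 genes of the cytoskeleton list, 20 had enough UMIs to compare. Of these 20, 17 were at least 1.5-fold higher (medians 1.84 and 1.57), where 31.8% of all genes compared were. Dynll1, a dynein light chain, was at 110 and 166 CPM against 24.8 and 37.4, and Actb at 185 and 224 against 52.2 and 75.9. Map1b, a microtubule-binding protein of axons and dendrites encoded by a long message, was an exception at 375 and 389 against 418 and 456. The glycolysis list had 10 of 16 genes higher, the lysosome list 14 of 16, the cytosolic chaperone list 12 of 14 and the list of folding factors of the endoplasmic reticulum (ER) 11 of 14. Hspa8, the constitutive cytosolic Hsp70, was at 337 and 424 against 55.4 and 105. No gene of these 8 lists was at least 1.5-fold lower in both libraries (3.47% of all genes compared were). Not all of this was particular to low-UMI barcodes. Microglia-marker barcodes of the same depth had 3099 and 3868 CPM of the ribosomal protein list, against 2401 and 3145 in low-UMI barcodes. The lysosome list stood at 2877 and 3768 against 1552 and 1628, the ER folding list at 1246 and 1477 against 1058 and 1118. The mitochondrially encoded list stood at 11310 and 9220, above low-UMI barcodes in vehicle only. The other lists were lower in microglia-marker barcodes.

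The synaptic adhesion list, made of very long neuronal genes, lay on the other side. Its sum was 75653 and 71974 CPM in low-UMI barcodes against 98731 and 93292 in deep barcodes, and the median of its 20 genes was -0.40 and -0.39, although 0 of the 20 passed 1.5-fold. Rbfox1, a neuronal splicing factor gene on the list, was at 3709 and 3605 against 5552 and 5509, and Ptprd, a receptor phosphatase of synapse formation, at 8553 and 7771 against 11166 and 10147. The synaptic vesicle list was close to deep barcodes at 7308 CPM against 8039 in vehicle. Within it Rab3a, a small GTPase of vesicles, was higher (77.6 and 101 against 17.5 and 28.2) and Syt1, the calcium sensor of release, lower (3706 and 3522 against 5028 and 4722).

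The nuclear-retained list summed to 34076 and 36994 CPM against 39101 and 43196. Malat1 was at 15992 and 19714 CPM against 22843 and 26725, and Meg3 at 9498 and 9024 against 10613 and 10463, both lower than in deep barcodes. At 1000 UMIs Malat1 was found in 2405 of 2405 vehicle and 1483 of 1483 OLE low-UMI barcodes, and Meg3 in 99.4% and 99.1%. In oligodendrocyte-marker barcodes Meg3 was found in 76.0% and 77.9%. Neat1, a scaffold RNA of nuclear paraspeckles with high levels in glia, was the 1 gene of this list at least 1.5-fold higher, at 279 and 229 against 8.47 and 12.5, and stood at 2041 and 2013 in oligodendrocyte-marker barcodes. Snhg11 was at 7064 and 6888 against 4394 and 4779, higher but short of 1.5-fold in OLE.

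The level in low-UMI relative to deep barcodes followed gene length. Among protein-coding genes of up to 5 kb, 874 of 1068 (81.8%) were at least 1.5-fold higher, with medians of 1.45 in vehicle and 1.31 in OLE. The share was 53.7% between 5 and 20 kb, 21.3% between 20 and 100 kb, 13.1% between 100 and 300 kb and 7.86% above 300 kb. The median of genes above 300 kb was -0.30 in both libraries. These longest genes gave 32.9% and 31.5% of the UMIs of low-UMI barcodes and 42.4% and 40.4% of those of deep barcodes. Short genes of up to 5 kb gave 2.66% and 3.10% against 0.900% and 1.15%. The short-gene share was not particular to low-UMI barcodes. It was 2.65% and 3.26% in microglia-marker and 1.70% and 2.07% in oligodendrocyte-marker barcodes. Genes above 300 kb gave 20.5% and 18.5% in microglia-marker and 27.7% and 25.4% in oligodendrocyte-marker barcodes, less than in low-UMI barcodes. Lengths were those of the gene span in the GENCODE vM21 annotation, and length and function overlap, since most of the housekeeping genes above are short.

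**Figure D3:**
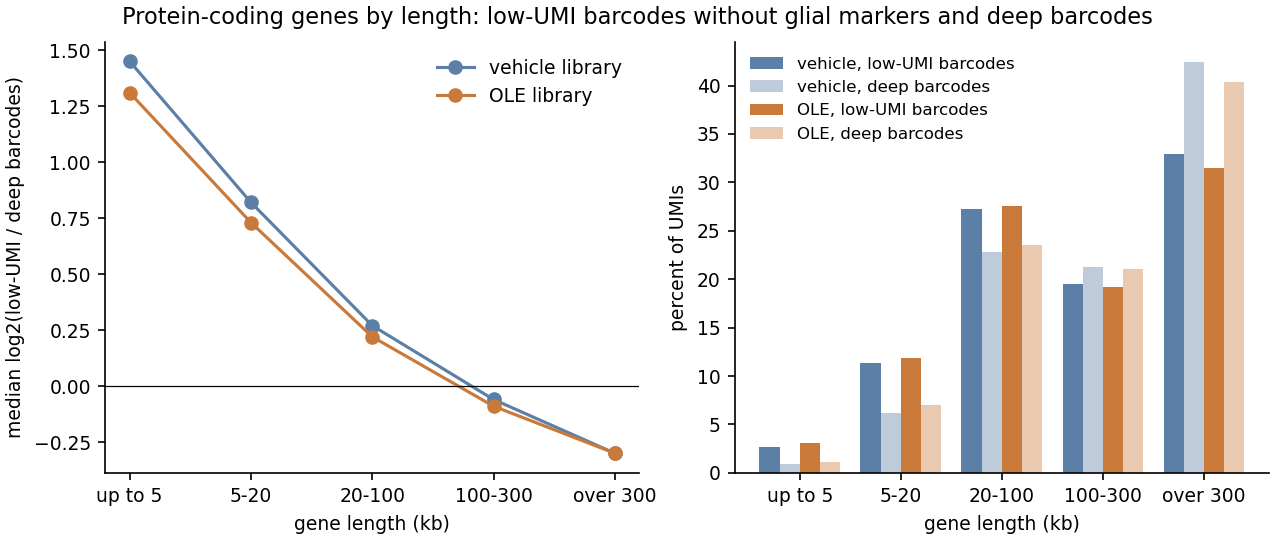
Left, the median log2 ratio of low-UMI barcodes to deep barcodes (y axis) for protein-coding genes in 5 classes of gene length in kb (x axis), by library. Right, the percent of UMIs (y axis) that each length class gave in low-UMI barcodes (full colour) and deep barcodes (pale). The median falls from 1.45 and 1.31 in the shortest class to -0.30 in the longest.

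The 10 genes that stood highest over deep barcodes in both libraries came mostly from blood, vessels, meninges and glia. Hbb-bs and Hba-a1, which encode haemoglobin chains, were at 222 and 105 and at 85.2 and 32.9 CPM, against at most 4.31 in deep barcodes, and rested in large part on the single barcodes named above. Vtn (vitronectin, a plasma protein made by brain pericytes) followed at 28.3 and 61.0 against 1.28 and 2.20. The others were Slc6a20a, Neat1, Opalin, Selenop, Spp1, Tyrobp and Gjc3. The 10 genes that stood lowest included 4 antisense genes, and the one with the highest counts among the 10 was Banf2 at 23.0 and 19.9 against 86.6 and 91.5. By class, 182 of 872 antisense genes (20.9%) and 120 of 864 lincRNA genes (13.9%) were at least 1.5-fold lower, and 212 of 13088 protein-coding genes (1.62%). Whether the counting used strand is not given in the sources used here, and without it an antisense gene cannot be told from its partner.

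Depth mattered within the low-UMI barcodes as well. In vehicle, 728 had 1000 to 2000 UMIs, 1340 had 2000 to 4000 and 337 had 4000 to 8000. In OLE these classes held 176, 426 and 881. The ribosomal protein list stood at 4376, 2077 and 1842 CPM in the 3 classes in vehicle, and at 14229, 3577 and 2480 in OLE. The cytoskeleton list stood at 2924, 2328 and 1790 in vehicle and at 5956, 3134 and 2657 in OLE, so both lists were highest in the class with the fewest UMIs. The oligodendrocyte list stood at 1577, 1482 and 942 in vehicle and at 1542, 1413 and 1206 in OLE. The glutamatergic list went the other way in vehicle, with 2417, 2487 and 2696, and had no order in OLE, with 2639, 2422 and 2516. Total UMIs are part of the rule, so these values are descriptions.

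The lowest OLE class rested partly on few barcodes. In it, 10 of 176 barcodes held 32.3% of the ribosomal protein UMIs, and the median barcode stood at 5717 CPM. The corresponding median of the 728 vehicle barcodes was 2434. The microglia list was also higher in this OLE class, at 2224 CPM against 863 in vehicle, and without barcodes rich in other lists the 2 values were 751 and 624. The ribosomal protein list without those barcodes was at 13387 CPM in OLE and 4250 in vehicle. They were not chosen by their ribosomal protein UMIs, so this does not show how much of the difference rests on few barcodes. Over all 3 classes, 66 vehicle and 63 OLE barcodes were rich in the ribosomal protein list. Without them the list was at 2006 CPM in vehicle and 2529 in OLE, against 2401 and 3145 with them.

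**Figure D4:**
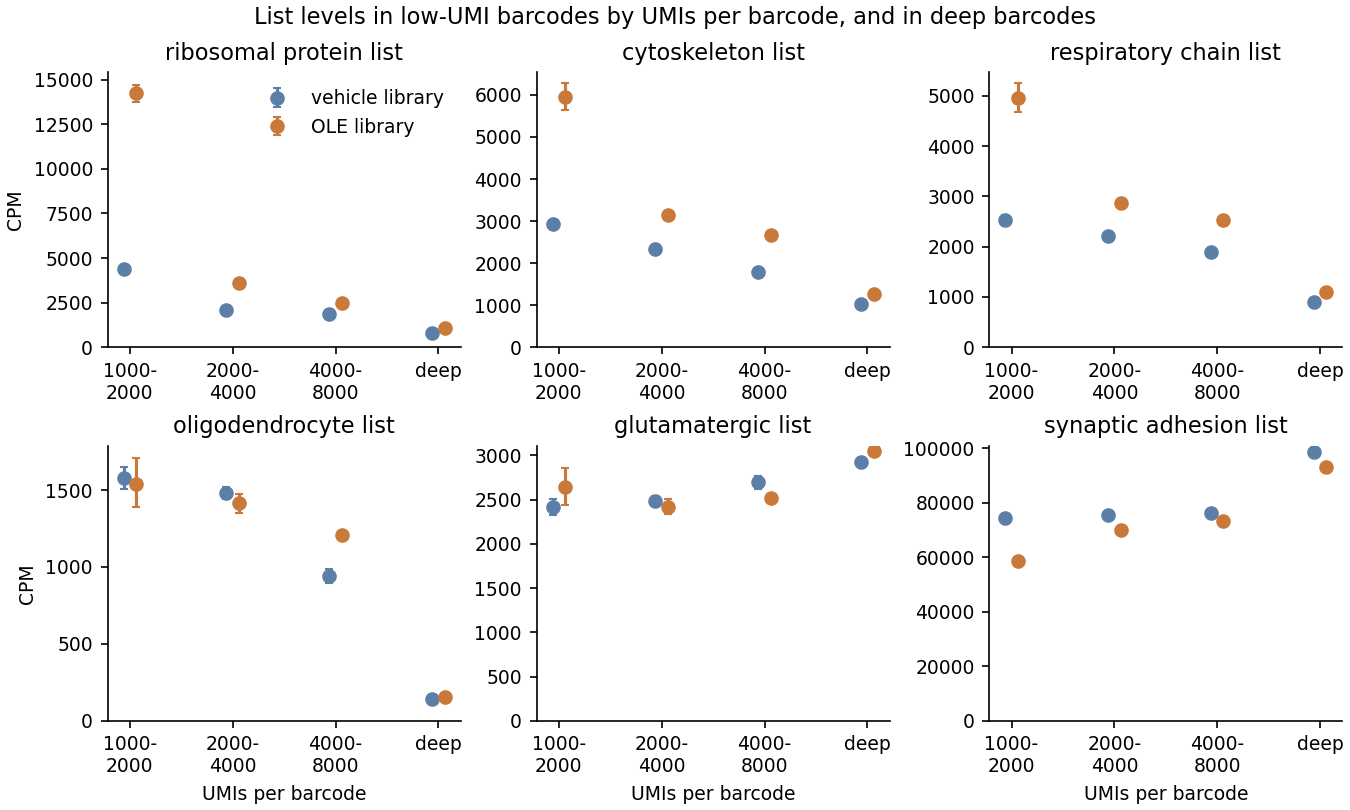
Summed level of 6 gene lists in CPM (y axes, starting at 0) in low-UMI barcodes of 3 classes of total UMIs and in deep barcodes (x axes), in the vehicle and OLE library. Points are levels and bars exact 95% Poisson intervals. Ribosomal protein levels go from 4376 to 1842 CPM in vehicle and from 14229 to 2480 in OLE across the 3 classes, and the OLE point lies above the vehicle point in each class for the 3 upper lists.

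Between the libraries, gene levels in low-UMI barcodes were close. Over 14446 genes the log2 levels correlated at r = 0.989. Of the 10949 genes that reached 100 UMIs when both libraries were added, 167 (1.53%) were at least 1.5-fold higher in OLE and 59 (0.539%) at least 1.5-fold lower. The median log2 ratio of OLE to vehicle was 0.02 and the SD over genes 0.231. The root mean square of the genes' approximate counting errors was 0.158.

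The ribosomal protein list leaned towards the OLE library. Its median log2 ratio was 0.40, 12 of 71 genes were at least 1.5-fold higher and 68 of 71 lay above 0. Among all genes compared 1.53% were at least 1.5-fold higher. Rps16 was at 26.8 CPM in vehicle and 45.3 in OLE (log2 ratio 0.76, interval 0.48 to 1.04) and Rplp1 at 70.8 and 110 (0.64, 0.47 to 0.81). Deep barcodes showed a median of 0.53 for the same genes. The ratio was above 0 in each depth class, with medians of 1.67, 0.78 and 0.43 from the lowest to the highest.

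The cytoskeleton list was higher in OLE in 20 of 20 genes, with a median of 0.33, and 2 genes passed 1.5-fold (1.53% of all genes compared did). Tuba1b, an alpha-tubulin, was at 45.9 in vehicle and 73.2 in OLE (0.67, 0.46 to 0.89) and Dynll1 at 110 and 166 (0.59, 0.45 to 0.73). The respiratory chain list had a median of 0.25, 40 of 43 genes lay above 0 and 3 passed 1.5-fold (1.53% of all genes compared did). These 3 were Atp5f1 at 89.1 and 135 (0.60), Ndufa4 at 63.3 and 105 (0.74, 0.56 to 0.92) and Uqcrb, a subunit of complex III, at 26.6 and 44.7 (0.75, 0.47 to 1.03). Of the 5 marker genes, Tmsb4x was at 399 and 597 (0.58, 0.51 to 0.65), just under 1.5-fold, Aldoa had a ratio of 0.51 (0.41 to 0.62) and Ids of 0.19 (0.05 to 0.34). In the deepest class, where the libraries were best matched in UMIs (medians 5386 and 5185), the list medians were 0.64 for the cytoskeleton and 0.36 for the respiratory chain. This lean to OLE was not particular to low-UMI barcodes. Deep barcodes had medians of 0.56 for the cytoskeleton genes and 0.29 for the respiratory chain genes. For the 5 marker genes the median was 0.63 in deep and 0.51 in low-UMI barcodes.

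The synaptic adhesion list leaned slightly to vehicle, with 19 of 20 genes below 0 and a median of -0.07, as in deep barcodes (-0.09). The mitochondrially encoded list had a median of 0.02. The glutamatergic list had a median of -0.03, with 0 of 10 genes past 1.5-fold in either direction, and Slc17a7 at 279 in vehicle and 270 in OLE (-0.05, -0.14 to 0.05). The glutamatergic median had no constant sign over the depth classes, at 0.06, -0.14 and 0.17 from the lowest to the highest.

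**Figure D5:**
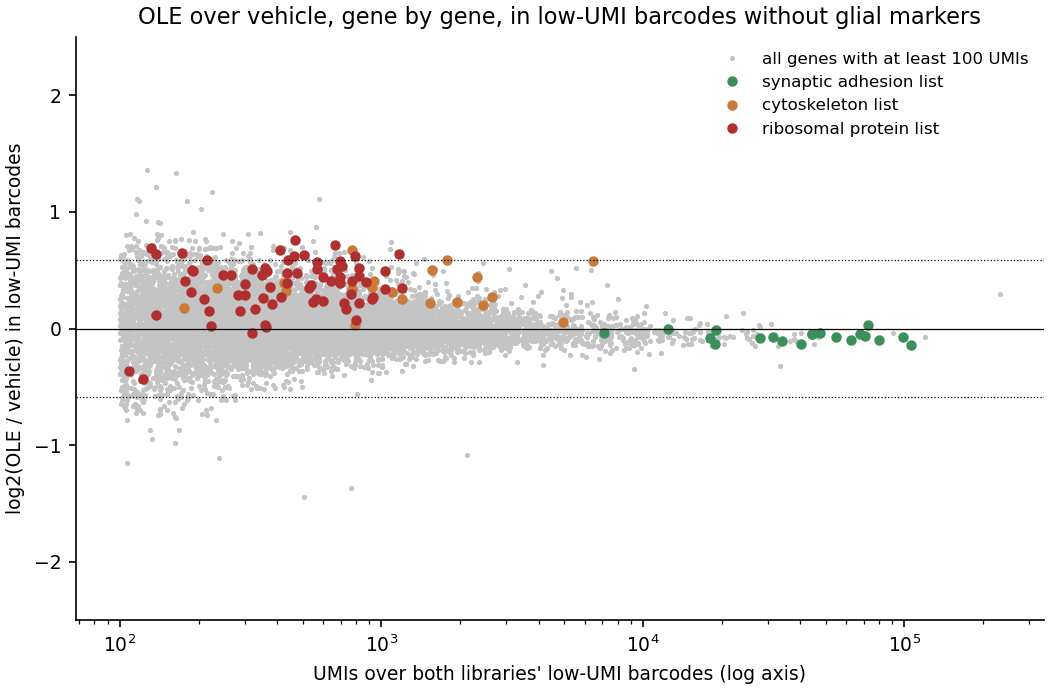
Log2 ratio of OLE to vehicle (y axis) against UMIs over both libraries' low-UMI barcodes (x axis, log scale) for each of 10949 genes, with the synaptic adhesion, cytoskeleton and ribosomal protein lists coloured. Dotted lines mark 1.5-fold, and 2 genes (Ttr and Hbb-bt) lie below the axis. Of the ribosomal protein genes 68 of 71 lie above 0, and of the synaptic adhesion genes 19 of 20 lie below 0.

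Among inhibitory neuron genes, 2 of 11 were at least 1.5-fold higher in OLE (1.53% of all genes compared were). These were Vip (log2 ratio 0.68, 0.50 to 0.86) and Npy (0.67, 0.36 to 0.97), and Sst had a ratio of 0.49 (0.35 to 0.63). The ratios in deep barcodes were 1.93 for Vip, 0.90 for Npy and 1.09 for Sst, and the list median was 0.13 in low-UMI barcodes. By depth class the list median was -0.04, 0.22 and 0.28.

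Immediate early genes, which neurons switch on within minutes of activity, were higher in the OLE library. Of 8 with enough UMIs, 4 were at least 1.5-fold higher (1.53% of all genes compared were). All 8 lay above 0, with a median of 0.55 and of 0.54 in deep barcodes. Dusp1, a phosphatase of MAP kinases, was at 10.4 CPM in vehicle and 21.1 in OLE (1.02, 0.59 to 1.46). Npas4 was at 12.1 and 20.6 (0.77, 0.36 to 1.19), Arc at 13.0 and 20.9 (0.69, 0.28 to 1.10) and Fos at 7.20 and 10.9 (0.59, 0.04 to 1.16). Egr1 had a smaller ratio, 0.24 (0.03 to 0.45), and Nr4a1 a ratio of 0.06 (-0.14 to 0.26).

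The ER folding list was closer between the libraries in low-UMI barcodes than in deep barcodes. Its sum was at 1058 CPM in vehicle and 1118 in OLE, a log2 ratio of 0.08 (0.03 to 0.13), whereas in deep barcodes it was at 404 and 619, a ratio of 0.61 (0.59 to 0.64). The ratio in low-UMI barcodes depended on depth, with 0.10, 0.06 and 0.29 for the sum in the 3 classes and a median of 0.32 in the deepest, where the libraries were best matched in UMIs. Calr, the ER chaperone calreticulin, was at 152 and 158 CPM in low-UMI barcodes (0.06, -0.07 to 0.19) and at 51.7 and 94.2 in deep barcodes. Hspa5, the ER Hsp70 known as BiP, was at 115 and 125 (0.11, -0.03 to 0.26) and at 40.3 and 72.8 in deep barcodes. Atp2a2, the calcium pump of the ER, had a ratio of 0.08 (-0.00 to 0.15). The difference between the 2 groups of barcodes has no replicate and was not tested.

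The cytosolic chaperones had a median of 0.28 (0.41 in deep barcodes), with 13 of 14 genes above 0 and Dnajb1 past 1.5-fold at 8.58 and 13.0 CPM. Hsp90ab1 was at 187 and 222 (0.24, 0.13 to 0.35). Among other genes named by the study, Apoe, the main lipid carrier of the brain, was at 490 in vehicle and 632 in OLE low-UMI barcodes (0.37, 0.30 to 0.44). Cst3, the protease inhibitor cystatin C, was at 439 and 504 (0.20, 0.13 to 0.27), and Itm2b at 408 and 477 (0.23, 0.15 to 0.30). These 3 genes were at 33.1 to 177 CPM in deep barcodes and at 468 to 3188 in microglia-marker barcodes. Their ratios of OLE to vehicle were larger in deep barcodes, at 0.54 for Apoe, 0.78 for Cst3 and 0.80 for Itm2b. Hsd17b4 had a ratio of 0.10 (-0.11 to 0.31) and Slc3a2 of 0.09 (-0.08 to 0.27) in low-UMI barcodes, and -0.01 and 0.42 in deep barcodes.

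Among all genes with at least 200 UMIs the highest ratio was that of Id3, a transcriptional inhibitor found in vascular and glial cells, at 10.7 CPM in vehicle and 24.2 in OLE (1.17, 0.76 to 1.60). Vtn followed at 28.3 and 61.0 (1.11, 0.85 to 1.37), Atp6v1f, a subunit of the vacuolar proton pump, was at 30.8 and 56.3 (0.87, 0.62 to 1.13), and Snu13, Naca, Nap1l3 and 2410004B18Rik had ratios of 0.81 to 0.83. Vtn belongs to the vascular list, whose sum was 149 CPM in vehicle and 204 in OLE, and 13 and 17 barcodes rich in this list held 26.1% and 35.1% of its UMIs. Of its 6 genes with enough UMIs 3 passed 1.5-fold (1.53% of all genes compared did), Vtn and the pericyte genes Abcc9 (7.20 and 18.2) and Rgs5 (12.6 and 20.2). Without the rich barcodes the list was at 111 and 134 CPM.

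The lowest ratios were those of Ttr (transthyretin, the main secreted protein of the choroid plexus) and of the haemoglobin genes, and single barcodes set them. Ttr was at 245 CPM in vehicle and 1.40 in OLE, and the barcode described above supplied nearly all of the vehicle value. Without the rich barcodes the choroid plexus list was at 18.7 and 10.1 CPM and the haemoglobin list at 51.5 and 81.2, so that the direction of the haemoglobin list turned. Among the remaining low genes were the lincRNA gene 9330185C12Rik, at 25.1 and 11.6 (-1.11, -1.52 to -0.71), Rpap1, at 22.7 and 13.2 (-0.78, -1.18 to -0.39), and Fyb, an adaptor protein of immune cells, at 20.7 and 12.4 (-0.74, -1.15 to -0.33). Triqk and Dtwd2 had ratios of -0.73 and -0.70.

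Of the 16 genes used in the rule, Dock2 (-0.87, -1.35 to -0.40), Vcan (-0.50, -0.88 to -0.13) and the 4 oligodendrocyte genes (-0.40 to -0.37) were lower in the OLE low-UMI barcodes. Gad1 and Gad2 were higher, at 0.23 and 0.28, and the intervals of the other 8 genes included 0. Fixed limits admit a lower marker share in a deeper barcode, so these ratios are descriptions only. Mbp and Mobp, myelin genes that the rule did not use, had ratios of 0.08 (-0.03 to 0.19) and 0.25 (0.02 to 0.49).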

How the data were processed

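Single-nucleus libraries of entorhinal cortex were analysed from the UMI counts per gene and barcode that the authors deposited, whole numbers without normalization (31053 genes). Per the labels, reads were aligned with Cell Ranger 3.0.1 to the mm10 pre-mRNA reference. The matrix headers give software version 3.0.2. The study names Seurat 4.0.4 for its quality control, doublet removal included. Whether the deposited matrices precede that step is not given in the sources used here. Depth was 70845739 UMIs in the vehicle and 69485537 in the OLE library. Counts were summed over the selected barcodes of each library, divided by their total and scaled to 1000000 (CPM). Ratios carry exact conditional binomial intervals, sums exact Poisson intervals and shares exact Clopper-Pearson intervals (scipy 1.17.1, numpy 2.4.6). No pseudocount was used. Thinning drew 1000 UMIs per barcode without replacement. Scrublet (scanpy 1.11.5), at an expected rate of 5%, called 0.104% and 0.130% of barcodes, too few to rely on unless doublets had been removed before, so all low-UMI barcodes were kept, with the top 5% of scores left out in an alternative. Gene lengths and classes came from GENCODE vM21 (99.9% of genes matched). Genes were named if on a list, in the rule, among the 5 markers, named by the study, or among the 10 highest or lowest ratios with at least 200 UMIs. The barcodes and the lists were chosen with earlier results of these data known. Some genes of the lists are not reported here by name.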

Additional observations from a re-analysis of the deposited data

Results flagged for a closer look

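For 4 gene lists the summed ratio of OLE to vehicle lay on opposite sides of 0 in low-UMI and deep barcodes, with neither counting interval including 0. With 1 library per group the differences were not tested. The haemoglobin list had a log2 ratio of -1.32 in low-UMI and 0.31 in deep barcodes, and 2 single barcodes held 2384 and 550 of its UMIs in the vehicle and OLE low-UMI barcodes. The oligodendrocyte list had -0.09 and 0.14, the GABAergic list 0.06 and -0.10, and the OPC list -0.09 and 0.04. These signs depended on depth. In the class of 4000 to 8000 UMIs the summed ratios were 0.36 (oligodendrocyte), 0.09 (OPC), 0.17 (GABAergic) and 0.78 (haemoglobin), and in that of 1000 to 2000 UMIs they were -0.03, -0.33, -0.23 and 4.73. Markers of oligodendrocytes, OPC and GABAergic neurons were capped in the rule at a fixed number of UMIs.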

How the results depend on the processing

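No paired analysis was possible because each group was 1 library and the labels give no replicate numbers. No alternative turned the difference between the shares, or the medians of OLE to vehicle of the cytoskeleton, respiratory chain, ribosomal protein, synaptic adhesion and ER folding lists, or the medians over deep barcodes of the 6 lists recomputed. Other lists were recomputed only by depth class, and there the glutamatergic and GABAergic medians of OLE to vehicle changed sign. Shares of low-UMI barcodes in vehicle and OLE were 7.44% and 2.88% with marker limits of 0 UMIs, 40.7% and 32.4% with doubled limits, 38.3% and 26.3% without a mitochondrial limit, and 43.2% and 35.2% with limits applied after thinning, an alternative added after the data had been seen. Every alternative for the shares kept the window of 1000 to 8000 total UMIs, so their dependence on that window was not tested. With limits of 0 UMIs, 95 genes were lower in OLE, 3003 were higher than in deep barcodes, the list medians of OLE to vehicle were 0.84 (ribosomal protein) and -0.12 (synaptic adhesion), and those over deep barcodes 3.11 (oligodendrocyte) and 1.90 (ribosomal protein). With 1000 to 4000 UMIs, 369 genes were higher and 97 lower in OLE, with medians of 0.97 (ribosomal protein) and -0.14 (synaptic adhesion), and medians over deep barcodes of 1.99 (cytoskeleton) and 1.93 (ribosomal protein). Centred on the median gene, 3134 genes were higher and 1743 lower than in deep barcodes, with medians of 0.23 (glutamatergic), -0.72 (synaptic adhesion), 1.39 (cytoskeleton), 1.18 (respiratory chain) and 1.20 (ribosomal protein). With at least 500 UMIs, 23 genes were higher and 4 lower in OLE, and 2097 higher and 142 lower than in deep barcodes. With at least 20 UMIs, 712 were higher and 491 lower in OLE. These minima also change which genes are compared. Thinned to 1000 UMIs, 1920 genes were higher and 196 lower than in deep barcodes, with medians of 3.37 (oligodendrocyte), -0.34 (synaptic adhesion) and 1.87 (ribosomal protein), and -0.10 for synaptic adhesion in OLE over vehicle. With limits applied after thinning, 119 genes were lower in OLE. At 1000 to 2000 UMIs alone, also added later, the medians of OLE to vehicle were 0.86 (cytoskeleton), 0.93 (respiratory chain), 1.67 (ribosomal protein) and -0.35 (synaptic adhesion). At 2000 to 4000 they were 0.78 (ribosomal protein) and -0.12 (synaptic adhesion), and at 4000 to 8000 they were 0.64 (cytoskeleton) and 0.32 (ER folding). Genes per low-UMI barcode as a percent of deep barcodes were 110% in both libraries at 500 UMIs, and 114% and 113% at 1000. The cause of a change was not tested. The other 138 of 188 alternative values lay within a set range of the reported value. This was 1.5 times a count, the interval of a share, or 1 percentage point for genes per barcode. For a list median it ran between the medians of its genes' interval ends, which is wide. It was 0.12 to 0.55 for the cytoskeleton list, which admitted 0.17 with limits of 0 UMIs. For the respiratory chain list it was 0.04 to 0.50, which admitted 0.49 with 1000 to 4000 UMIs. Doublet removal left every value in its range.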

Other observations

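The amyloid related list, which holds the precursor protein gene App and genes of its processing and of amyloid binding, summed to 3764 CPM in vehicle and 4126 in OLE low-UMI barcodes, and to 1732 and 2117 in deep barcodes. Of its 13 genes with enough UMIs, 7 were at least 1.5-fold higher in low-UMI than in deep barcodes of both libraries (31.8% of all genes compared were) and 0 at least 1.5-fold lower. App itself was at 817 and 783 against 581 and 675. Bace1, which encodes a protease that cuts it, was at 34.2 and 39.7 against 29.7 and 34.1.

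Superficial layer genes summed to 804 and 779 CPM in low-UMI and 865 and 832 in deep barcodes, and deep layer genes to 1426 and 1465 against 1784 and 1687. Their median ratios of OLE to vehicle in low-UMI barcodes were -0.00 and -0.01. The OPC list stood at 809 and 758 CPM against 706 and 724 in deep barcodes.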
